A study of Mus musculus with 4 samples.

Results

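The widest CTCF peaks of mouse testis were examined: the autosomal peaks of 1400 bp or more in the deposited peak list. They were selected on their width alone, the distance between the called start and end, and numbered 2649 of 50267 autosomal peaks (5.27%) and of 51871 peaks in the whole list. The material was whole, unsorted testis of F1 (B6xCAST) animals, frozen and then fixed in paraformaldehyde while thawing. CTCF ChIP-seq was run on 2 IP samples, with 2 input samples beside them. The values came from 1 list described as merged, so no value per sample, no spread between animals and no read depth stood behind them. No age is given in the labels. Cells of all testicular types share the list, so strong binding in few cells and weak binding in many cells could not be told apart.

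CTCF is a zinc-finger protein that recognises a long DNA motif, blocks enhancers and halts cohesin as it extrudes loops of chromatin. In meiotic prophase the loops are anchored to a protein axis that carries the meiotic cohesins. A called peak spans the stretch of genome in which IP reads exceed background, and its summit is the single position of highest signal.

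The wide peaks took up 14.5% of the length of all autosomal peaks, 4.72 Mb against 27.96 Mb in the other peaks. Their width ran from 1400 to 5563 bp with a median of 1615 bp, against a median of 508 bp in the other peaks. The threshold cut a continuous range. At its inner side 6 peaks were exactly 1400 bp wide. The first of them by position lay inside Dchs2, with a fold of 9.32. Another lay 73 bp from an end of Kdm1a, which encodes a histone demethylase, with a fold of 5.55. A further peak lay 8.65 kb from Hspb1, which encodes a small heat shock protein, with a fold of 7.22. On the outer side 7 peaks were 1399 bp wide. The nearest genes of the first 3 of these were Gal3st2 (fold 6.08), Anks6 (fold 7.98) and Adcyap1r1 (fold 9.82).

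Promoters bound by wide peaks are shown first, since the CTCF motif and the base composition bear on them. RefSeq promoter windows of build GRCm38.p6 run from 250 bases before to 50 bases after an annotated start. The summit of a wide peak lay inside such a window for 126 peaks and 129 protein-coding genes. The core pattern searched was CCANNAGNNGGC on either strand, the central part of the CTCF motif, with N for any base. It was counted 19 times in that set of 126 peaks. A shorter pattern inside it, AGNNGGC, was added after the data were seen. The 4 windows below carry the widest of these peaks. Capitals mark each match of the shorter pattern on either strand, and none of the 4 holds the full core pattern.
Hoxd10 (chr2:74691641-74691940, plus strand): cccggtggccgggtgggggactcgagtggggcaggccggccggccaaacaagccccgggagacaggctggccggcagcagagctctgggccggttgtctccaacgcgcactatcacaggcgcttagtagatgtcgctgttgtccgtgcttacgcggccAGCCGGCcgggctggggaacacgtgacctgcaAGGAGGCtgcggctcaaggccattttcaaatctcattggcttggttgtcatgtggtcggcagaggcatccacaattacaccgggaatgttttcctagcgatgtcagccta
Fam102b (chr3:109027558-109027857, minus strand): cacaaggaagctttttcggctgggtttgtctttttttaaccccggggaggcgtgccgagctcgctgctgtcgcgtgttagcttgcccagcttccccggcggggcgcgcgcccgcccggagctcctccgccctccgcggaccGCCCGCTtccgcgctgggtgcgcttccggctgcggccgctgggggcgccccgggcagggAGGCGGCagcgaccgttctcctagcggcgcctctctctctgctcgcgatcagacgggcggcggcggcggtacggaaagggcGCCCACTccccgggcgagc
Mrm1 (chr11:84819466-84819765, minus strand): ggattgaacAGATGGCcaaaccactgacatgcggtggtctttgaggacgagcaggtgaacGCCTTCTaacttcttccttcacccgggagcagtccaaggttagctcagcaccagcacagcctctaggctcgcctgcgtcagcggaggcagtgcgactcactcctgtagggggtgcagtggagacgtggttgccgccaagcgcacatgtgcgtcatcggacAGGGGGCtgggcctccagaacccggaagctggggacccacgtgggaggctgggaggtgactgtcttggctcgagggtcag
Idh1 (chr1:65179093-65179392, minus strand): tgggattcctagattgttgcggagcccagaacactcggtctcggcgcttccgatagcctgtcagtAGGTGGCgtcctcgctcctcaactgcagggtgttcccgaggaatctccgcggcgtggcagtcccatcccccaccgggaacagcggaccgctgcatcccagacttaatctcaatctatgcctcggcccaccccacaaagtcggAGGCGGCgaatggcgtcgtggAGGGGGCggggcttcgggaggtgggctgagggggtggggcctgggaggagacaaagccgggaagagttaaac

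At Hoxd10, a homeobox gene of the limb and posterior body axis, the peak was 3946 bp wide with a fold of 3.84, and its summit lay at −157 bases from 1 of the gene's starts. The summit stood far to one side, at 90.4% of the peak's width. At Fam102b the peak was 2965 bp wide with a fold of 2.397, also with the summit near one edge (87.6% of the width). Mrm1, which encodes a methyltransferase of mitochondrial ribosomal RNA, had a peak of 2700 bp with a fold of 8.09 and the summit at 86.4% of the width. At Idh1, which encodes the cytosolic isocitrate dehydrogenase, the peak of 2670 bp had its summit near the middle (51.7%), with a fold of 6.45. That summit lay 6 bases from a capital match, against 65, 10 and 68 bases at Hoxd10, Fam102b and Mrm1. The shorter pattern was found in 63.97% of all promoter windows, and no background distance is given beside these values.

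The windows of the 2 highest folds among these peaks, and of the widest peak whose window holds the full core pattern, picked out after the values were seen, were the following. In the last one the capitals cover the full pattern.
Emx2 (chr19:59458440-59458739, plus strand): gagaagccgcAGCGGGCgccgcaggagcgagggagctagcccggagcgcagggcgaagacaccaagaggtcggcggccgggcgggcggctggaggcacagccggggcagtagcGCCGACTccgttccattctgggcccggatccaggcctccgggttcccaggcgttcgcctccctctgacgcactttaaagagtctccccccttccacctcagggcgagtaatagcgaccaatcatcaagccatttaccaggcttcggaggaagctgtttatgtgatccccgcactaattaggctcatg
Tysnd1 (chr10:61695336-61695635, plus strand): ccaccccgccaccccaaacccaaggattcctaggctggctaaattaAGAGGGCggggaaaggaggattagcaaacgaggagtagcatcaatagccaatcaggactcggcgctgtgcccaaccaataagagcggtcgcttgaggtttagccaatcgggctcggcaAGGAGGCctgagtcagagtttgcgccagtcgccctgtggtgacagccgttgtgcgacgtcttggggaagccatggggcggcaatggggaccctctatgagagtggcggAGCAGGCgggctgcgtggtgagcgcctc
Ext2 (chr2:93822519-93822818, minus strand): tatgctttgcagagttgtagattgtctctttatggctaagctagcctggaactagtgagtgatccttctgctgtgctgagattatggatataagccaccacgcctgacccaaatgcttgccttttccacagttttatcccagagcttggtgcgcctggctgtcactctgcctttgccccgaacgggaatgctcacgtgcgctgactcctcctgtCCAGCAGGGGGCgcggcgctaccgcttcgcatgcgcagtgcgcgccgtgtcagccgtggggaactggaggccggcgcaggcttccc

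Emx2, a homeobox gene of forebrain and urogenital development, had a peak of 1716 bp with a fold of 15.5. Its summit lay at −140 bases from the start and 3 bases from a match of the shorter pattern. Tysnd1, which encodes a peroxisomal protease, had a peak of 1440 bp with a fold of 14.7 and a summit 32 bases from such a match. Ext2, which encodes an enzyme of heparan sulfate chain synthesis, had a peak of 2372 bp with a fold of only 3.13. Its summit lay 5 bases from the match. A match is a description of letters and not a mapped site.

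Median enrichment at the summit rose with width up to a middle range and was lower beyond it. The fold is the authors' value at the summit over background, and it comes from the same contrast as the width, so it is described here without a test. The median fold of the wide peaks was 6.92 (quartiles 5.45 and 8.89), close to 6.82 in the other peaks (quartiles 4.67 and 9.29). Across bands of width, the median fold was 4.002 from 200 bp, 6.14 from 300 bp and 8.53 from 500 bp, and was highest, 9.35, from 700 to under 1000 bp. It was then 8.45, 7.61, 7.03, 6.75 and 6.90 in the next bands, and 6.33 in the 75 peaks of 3000 bp or more. Folds of 10 or higher were found in 15.4% of the wide peaks (exact 95% interval 14.1 to 16.8) and in 19.8% of the others (19.4 to 20.2).

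**Figure D1:**
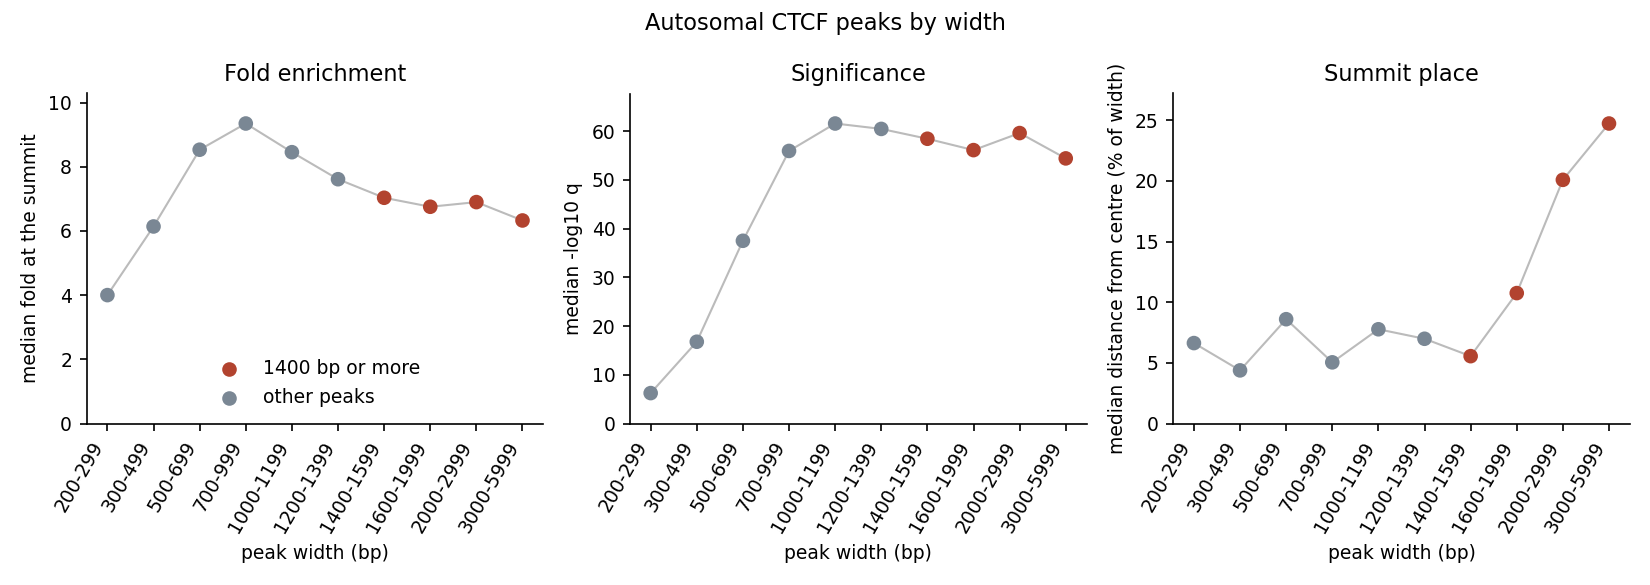
Median fold at the summit, median −log10 q and median distance of the summit from the peak's centre, in percent of the width, for 10 bands of peak width in bp. Red points are bands of 1400 bp or more and grey points are narrower bands; fold is highest at 9.35 in the band of 700 to under 1000 bp, −log10 q stays at 54.4 or above from 700 bp on, and the summit moves off the centre beyond 1600 bp.

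The −log10 q of the wide peaks was high, but not higher than in peaks just under the threshold. Their median was 57.9 (quartiles 48.3 and 67.4), against 27.7 in the other peaks (quartiles 10.01 and 52.2). Only 1.96% of the wide peaks had a −log10 q below 15, against 34.2% of the others. The gap held at equal fold. At folds of 4 to 6 the median −log10 q was 47.3 in 727 wide peaks and 10.8 in 12187 others, and at folds of 8 to 10 it was 68.8 and 43.9. At folds of 12 and above the values came closer, 85.7 in 179 wide peaks and 69.3 in 4510 others. Over the bands of width, high values were not particular to the wide peaks. The median was 37.5 from 500 bp, 55.96 from 700 bp, 61.6 from 1000 bp and 60.5 from 1200 bp. In the bands from 1400 bp on it lay between 54.4 and 59.6. The number of reads behind each fold is not in the list.

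A small class of wide peaks had almost no enrichment. A fold below 2 was found in 15 wide peaks (0.566%, interval 0.317 to 0.932) and in 64 others (0.134%, interval 0.104 to 0.172). These 15 had folds of 1.33 to 1.94 and −log10 q of 1.308 to 9.94, with a median width of 1686 bp. The 3 lowest lay 13.6 kb from Rbm19, which encodes a nucleolar RNA-binding protein (fold 1.33), 91 bp from an end of Syt7, which encodes a calcium sensor of vesicle fusion (fold 1.33), and inside Tjp3, which encodes a tight junction protein (fold 1.36). Their summits were central, between 41.7% and 47.9% of the width. Gene ends were within 1 kb of the summit in 4 of the 15, against 15.8% of all wide peaks. Among wide peaks in the lowest quintile of fold the share was 28.9% (23.6 to 34.7).

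The summit moved off the centre in the wide peaks. It fell within the middle 20% of the width in 50.2% of them (interval 48.3 to 52.2), against 72.3% of the others (71.9 to 72.7). It lay in the outer 20% at either side in 5.40% of the wide peaks and 1.23% of the others. The median distance of the summit from the centre was 9.92% of the width, against 5.93%. This came mainly from the widest members. From 1400 to under 1600 bp the median was 5.56%, within the range of 4.38% to 8.60% in the narrower bands. It was 10.8% from 1600 bp, 20.1% from 2000 bp and 24.7% at 3000 bp or more.

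In bp, the short side of a wide peak changed little while the long side grew. From summit to nearest edge the median was 671 bp in the wide peaks and 202 bp in the others. In the 554 peaks of 2000 bp or more the median short side was 717.5 bp and the median long side 1666 bp, against 661 and 913 bp in the 2095 narrower wide peaks. A summit over 20% of the width from the centre was found in 52.0% of the first group and 16.6% of the second. The extreme case was a peak of 2540 bp inside Pdgfra, which encodes a growth factor receptor, with the summit 150 bp from its edge, at 94.1% of the width. The next was a peak of 2177 bp at Cry1, a gene of the circadian clock, with the summit 319 bp from an annotated end and at 91.1% of the width.

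**Figure D2:**
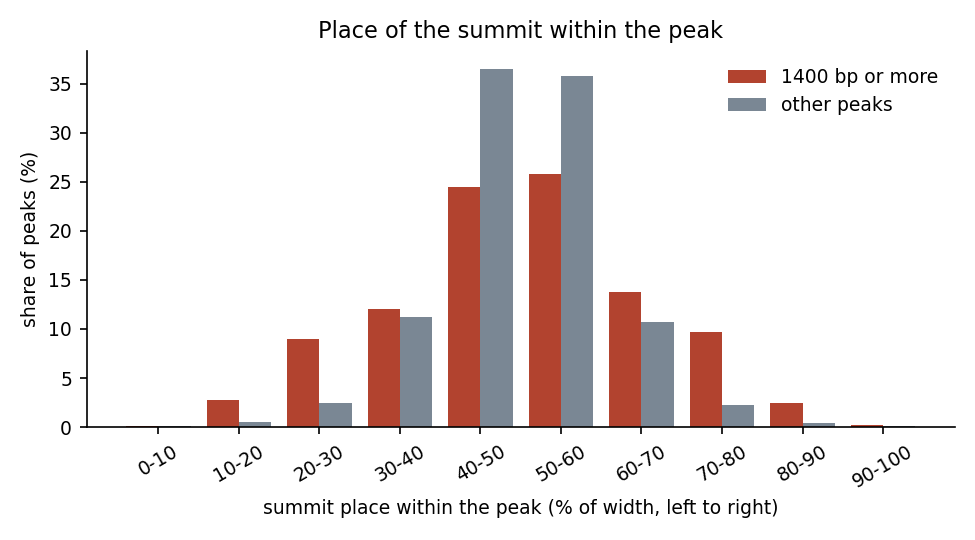
Share of peaks (percent) by the place of the summit within the peak, in 10 equal bins of the width from its left to its right edge, for peaks of 1400 bp or more (red, left bar of each pair) and the other autosomal peaks (grey). The 2 central bins hold 24.5% and 25.8% of the wide peaks, against 36.5% and 35.7% of the others, and the wide peaks are more frequent from 20 to 30% (8.95% against 2.41%) and from 70 to 80% (9.66% against 2.21%).

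Wide peaks also had closer neighbours in the list. The median gap to the edge of the nearest other peak was 4.41 kb (interval of the median 4.10 to 4.75), against 8.03 kb for the other peaks (7.90 to 8.15). Another peak lay within 1 kb of 16.9% of the wide peaks (15.5 to 18.4) and of 11.02% of the others (10.7 to 11.3). Gaps were measured from edge to edge, so width itself adds reach, and no adjustment was made for it. The smallest gap was 0.142 kb in both groups. The median gap shortened along the width bands, with 8.99 kb from 200 bp, 7.34 kb from 700 bp, 4.88 kb from 1400 bp and 2.505 kb at 3000 bp or more, though not at every step.

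None of the 10 widest peaks had its summit within 1 kb of the end of a protein-coding gene, against 15.8% of all wide peaks. Of the 10, 5 had the summit inside a gene, against 35.3% of all wide peaks. The widest, 5563 bp, spanned chromosome 9 from 71612931 to 71618493 with a fold of 5.71, 11.7 kb from Cgnl1, which encodes a protein of epithelial cell junctions. The next, 5073 bp, lay on chromosome 15 from 97663226 to 97668298 with a fold of 5.52, 9.56 kb from Rpap3, which encodes a co-chaperone. The third, 5057 bp, lay inside Npas1, a neuronal transcription factor gene, on chromosome 7 from 16462262 to 16467318, with a fold of 5.07. A peak of 5039 bp inside Ksr2, which encodes a scaffold of the Ras pathway (chromosome 5, 117502160 to 117507198), had the lowest fold of the 10, 2.19, and the lowest −log10 q, 13.99. A peak of 4886 bp lay far from genes, 75.3 kb from Shisa3 (fold 5.90).

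The other 5 of the widest peaks had lopsided summits. With its summit inside Rhbg, which encodes an ammonium transporter, a peak of 4647 bp had a fold of 7.08. That summit stood at 87.6% of the width, and the peak also covered an annotated end of Rhbg, 3.15 kb from the summit. A peak of 4310 bp near Gemin2, a gene of spliceosome assembly, had its summit at 9.18% and a fold of 8.21. Inside Bcl6, which encodes a transcriptional repressor of germinal centre B cells, a peak of 4249 bp had its summit at 18.1% of the width and the highest fold of the 10, 9.41. Mmp9, which encodes a secreted matrix protease, held a peak of 4216 bp with its summit at 87.4%. A peak of 4199 bp beside Abhd11 had its summit at 74.7%.

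Among the wide peaks of highest fold, 2 of 10 had their summit at a gene end, against 15.8% of all wide peaks. The widths of the 10 were 1410 to 2103 bp. The highest fold, 20.2, belonged to a peak of 1711 bp on chromosome 15 (99378018 to 99379728), 8.48 kb from Fmnl3, which encodes an actin-assembling formin. The next, 18.8, belonged to a peak of 1825 bp on chromosome 2 (70560440 to 70562264) whose summit lay 82 bp from an end of Gad1, which encodes an enzyme that makes the neurotransmitter GABA. A fold of 18.1 was found 6 bp from an end of Tfap4, a transcription factor gene (chromosome 16, 4559281 to 4561327). The remaining peaks lay inside Sec16b, Mmd2 and Asic2 or outside genes near Impa1, Aipl1, Sec14l1 and Prkab2, with folds of 17.95 to 18.65.

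Position relative to genes was not used to select the peaks, and the shares inside genes and at gene ends were tested over autosomes. Wide peaks lay inside genes less often than the other peaks. A summit was counted as inside when it lay in a protein-coding gene and over 1 kb from the ends of all such genes. This held for 35.3% of the wide peaks (934 of 2649, interval 33.4 to 37.1) and 42.8% of the others (42.3 to 43.2). Averaged over the 19 autosomes the shares were 34.5% and 42.6%, a difference of −8.09 percentage points ± 5.42 (SD, n = 19 autosomes). The share was lower in the wide peaks on 19 of 19 autosomes (exact two-sided sign-flip permutation test, p = 3.815e-06, the smallest that 19 autosomes allow, adjusted p = 1.907e-05). The p measures the spread between chromosomes of 1 peak list, not between animals. The share fell gradually with width on both sides of the threshold and was not particular to peaks of 1400 bp or more. It was 45.8% from 200 bp, 42.1% from 500 bp, 38.4% from 1000 bp, 37.02% from 1200 bp, 35.8% from 1400 bp and 34.2% from 2000 bp. In the 75 peaks of 3000 bp or more it was 48.0% (36.3 to 59.9).

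The share at gene ends did not pass the test. The summit lay within 1 kb of either end of a protein-coding gene in 418 wide peaks, or 15.8% (interval 14.4 to 17.2), against 16.5% of the others (16.2 to 16.8). The mean difference over autosomes was −0.84 points ± 3.67 (SD, n = 19 autosomes), lower in the wide peaks on 13, higher on 5 and equal on 1 (exact sign-flip permutation test, adjusted p = 0.335). Its direction changed with the window, the peaks kept and the gene set. Counting annotated starts alone, on the 18 autosomes for which starts could be placed by strand, the share was 10.2% in wide peaks and 12.9% in others, and the mean difference was −2.74 points (exact sign-flip permutation p = 0.000633). Far ends of genes went the other way, with 3.67% (2.98 to 4.47) of wide and 2.95% (2.80 to 3.11) of other summits. That contrast was looked at after the values were seen and has no test.

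**Figure D3:**
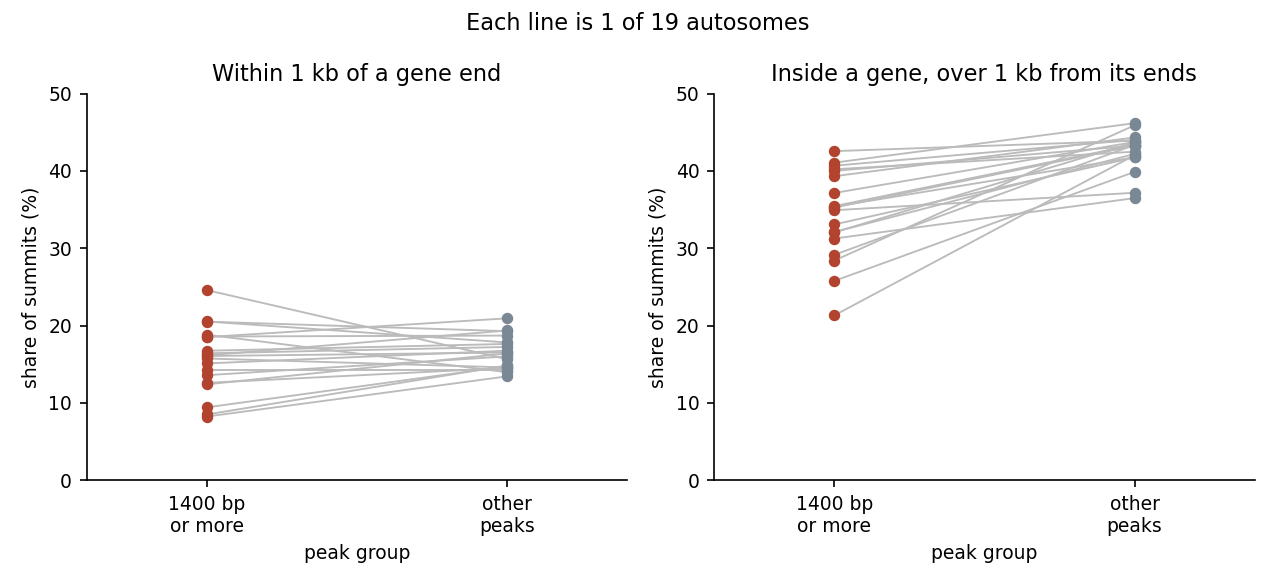
Share of summits (percent) within 1 kb of a gene end (left panel) and inside a gene (right panel) for peaks of 1400 bp or more (red) and other peaks (grey), with 1 line per autosome. In the right panel all 19 lines are lower at the wide peaks, and in the left panel the lines go both ways, with autosome 18 at 24.6% for wide and 15.7% for other peaks.

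Outside genes, the wide peaks lay nearer to gene ends than the others, with wide spread. The values in this paragraph were not tested over autosomes, and their intervals cover counting error only. Of all wide peaks 49.0% were outside genes, against 40.7% of the others. Each distance class up to 100 kb held a higher share of the wide peaks. Summits 1 to 5 kb outside made up 11.5% (10.3 to 12.8) of the wide peaks and 8.12% (7.87 to 8.36) of the others, and those 5 to 20 kb outside 18.95% (17.5 to 20.5) and 12.4% (12.1 to 12.7). From 20 to 100 kb the shares were 14.5% (13.2 to 15.9) and 12.99% (12.7 to 13.3). Beyond 100 kb the order turned, with 4.002% (3.29 to 4.82) and 7.21% (6.98 to 7.45). Among summits outside genes the median distance to a gene end was 13.2 kb for wide peaks (12.04 to 14.1) and 19.7 kb for others (19.1 to 20.2). Ends of lncRNA genes were within 1 kb of 6.76% of wide summits (5.83 to 7.78) and 5.13% of others (4.94 to 5.33).

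**Figure D4:**
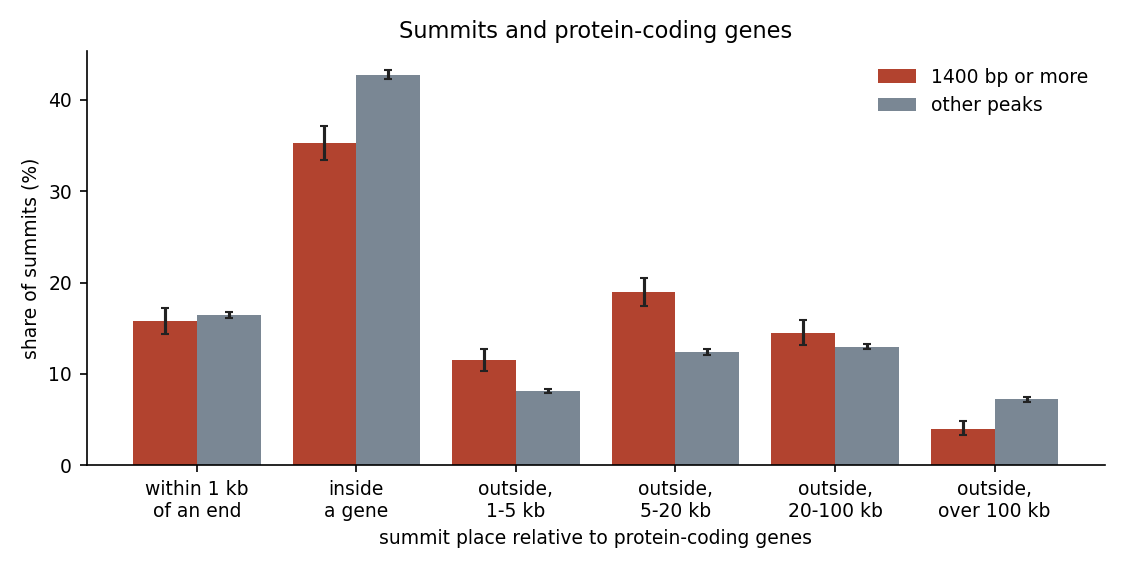
Share of summits (percent) by place relative to protein-coding genes, for peaks of 1400 bp or more (red, left bar of each pair) and other autosomal peaks (grey); error bars are exact 95% intervals that cover counting error only. Wide peaks are fewer inside genes (35.3% against 42.8%) and more frequent 5 to 20 kb outside (18.95% against 12.4%).

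The shares were also set out by quintile of fold over all autosomal peaks. Among other peaks, gene ends grew rarer with fold, with 27.4% in the quintile of lowest fold and 10.7% in that of highest fold. In the wide peaks the share was 28.9% (23.6 to 34.7) in the lowest quintile, 14.0%, 12.9% and 14.2% in the middle ones and 17.3% (13.8 to 21.3) in the highest. The wide share was above that of the others on 11, 4, 7, 10 and 13 of the 19 autosomes in these 5 quintiles. Inside genes the wide peaks were fewer in each quintile, with 22.6% (17.7 to 28.1) against 40.2% in the lowest and 37.5% (32.8 to 42.4) against 43.98% in the highest. Averaged within the quintiles and then tested over autosomes, the gene-end difference was 0.29 points and did not pass (exact sign-flip permutation p = 0.7295, n = 19 autosomes). The difference inside genes was −8.45 points and passed in the same exact test (p = 3.815e-06). No single quintile was tested.

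**Figure D5:**
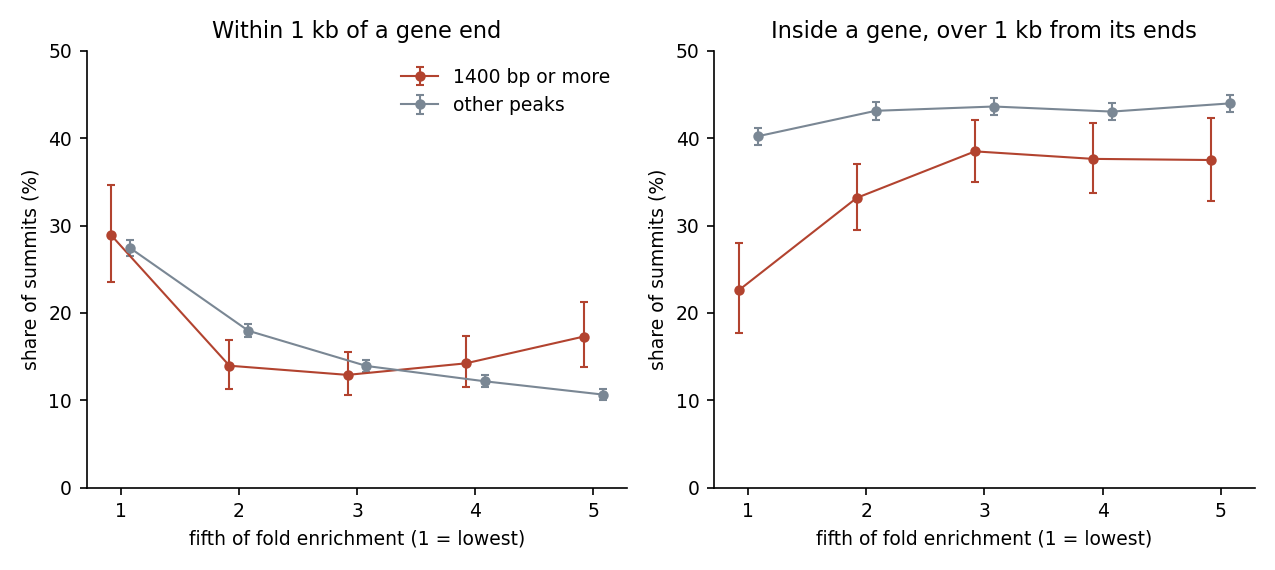
Share of summits (percent) at gene ends (left) and inside genes (right) by quintile of fold enrichment, for peaks of 1400 bp or more (red) and other peaks (grey), with exact 95% intervals. At gene ends the grey line falls to 10.7% in the highest quintile while the red point there is at 17.3%, and inside genes the red points lie under the grey ones in each quintile.

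At promoters, more of the wide summits than of the others lay before the start, a contrast that was not tested over autosomes. Of 263 wide peaks with the summit within 1 kb of an annotated start, 193 (73.4%, interval 67.6 to 78.6) had it upstream, against 57.6% of 5968 others (56.3 to 58.9). The median summit stood at −107 bp from the start in wide peaks and −34 bp in others. Both sides of the wide peaks were of like length, with a median of 806 bp in the direction of transcription and 810 bp against it. Wide peaks contained the start in 96.6% of cases and the others in 69.1%, with no adjustment for width. Of the 291 wide peaks that contained a start, 20 held starts of 2 or more genes (6.87%, interval 4.25 to 10.4), 19 of them on both strands. In the other peaks the share was 8.45% (7.62 to 9.34).

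Promoters near wide summits were slightly richer in G and C. These were 331 windows with a wide summit within 1 kb of the start, a wider rule than the summit inside the window that gave the 129 genes above. Averaged over 18 autosomes, GC made up 64.2% of the promoter window where a wide summit lay within 1 kb of the start and 62.7% where only other summits did, a difference of 1.495 points ± 1.79 (SD, n = 18 autosomes), higher on 15 of 18 (exact sign-flip permutation test, adjusted p = 0.00652). Promoters with no summit within 1 kb had a mean GC of 53.0%. The call was lost with summits within 500 bp or with a width of 1200 bp or more, given with the other settings. CpG dinucleotides numbered 24.8 and 24.2 per window, a difference that did not pass (adjusted p = 0.247, same exact permutation test, higher on 13 of 18 autosomes).

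The core CTCF pattern was found in 25 of 331 promoters with a wide summit within 1 kb (7.55%, interval 4.95 to 10.95) and in 271 of 6971 with only other summits (3.89%, 3.45 to 4.37). These are windows of 278 and 6027 genes. The intervals count each window separately, though windows of 1 gene are not independent. It occurred in 1.44% of promoters with no summit and in 2.39% of all 20063 promoter windows. Over autosomes the difference was 2.87 points ± 6.45 (SD, n = 18 autosomes), higher on 12 of 18, and did not pass (adjusted p = 0.129, exact sign-flip permutation test). The shorter pattern was found in 84.9% of promoters with a wide summit within 1 kb, 74.5% of those with only other summits and 63.97% of all promoters. The part of GC content in this was not tested.

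The genes with wide peaks were then read against 17 lists, among them testis, housekeeping and developmental genes. A wide summit lay within 1 kb of an end of 465 of 20560 autosomal protein-coding genes, a background of 2.26%, and a summit of any width at 40.3%. None of the 19 spermatogonial, 40 meiotic, 11 Sertoli cell or 10 Leydig cell genes had a wide peak at an end, which allows shares of up to 17.6%, 8.81%, 28.5% and 30.8% (exact upper limits). Among these, 8, 22, 4 and 3 had a summit of some width there. Of 29 spermatid genes only Odf2, which encodes a protein of the sperm tail, had one, 1418 bp wide with a fold of 4.66. The intervals of these 5 counts all include the background. The presence of CTCF at a gene does not show in which cells the gene is active.

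A wide peak stood at an end of 6 of 39 Hox genes, the homeobox genes of anterior to posterior patterning (15.4%, interval 5.86 to 30.5), against the background of 2.26%, while 17 of the 39 had a peak of some width. The widest were at Hoxc10 with 2244 bp (fold 6.37), Hoxd11 with 2226 bp (fold 10.2) and Hoxb5 with 2054 bp (fold 7.31). Hoxb8, Hoxc5 and Hoxa10 followed, with 1932, 1467 and 1436 bp. The Hoxd10 peak shown above was not among them, because the outer ends annotated for that gene lie over 1 kb from its summit. Neighbouring Hox genes share chromatin and are not independent of each other.

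Ribosomal protein genes had wide peaks at 5 of 76 (6.58%, interval 2.17 to 14.7), among them Rpl38 with 1810 bp (fold 7.28) and Rps29 with 1636 bp (fold 5.01). The interval includes the background of 2.26%, and any summit was found at 76.3% of this list, against 40.3% of all genes. Among clustered protocadherins, cell adhesion genes known for CTCF sites at their promoters, 55 of 57 had a summit and 5 a wide one (8.77%, interval 2.91 to 19.3, against the background of 2.26%). Among genes with any summit, a wide one was found at 5 of 55 protocadherins and at 465 of 8278 genes in all. Neighbouring members share a cluster and are not independent of each other. All 5 were Pcdha genes on chromosome 18, with 1746 bp at Pcdha4 (fold 8.40), 1602 bp at Pcdha6 (fold 11.2) and 1541 bp at Pcdha8 (fold 8.63). Of 63 clustered histone genes 44 had a summit, and only that at H4c3 was wide (1501 bp, fold 7.73), 1.59% of the list with an interval of 0.0402 to 8.53 that includes the background.

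The gene of CTCF itself carried a wide peak, 1469 bp on chromosome 8 (105636098 to 105637566), with a fold of 8.52 and its summit at 52.0% of the width. With Esco1, which encodes a cohesin acetyltransferase (1444 bp, fold 5.37), it made 2 of 21 genes of CTCF and cohesin (9.52%, interval 1.18 to 30.4). In the imprinted list 2 of 42 genes had one (4.76%, interval 0.582 to 16.2). Both shared 1 peak of 1995 bp with a fold of 10, which covered the facing ends of Peg10, a retrotransposon-derived gene, and Sgce. Its summit lay 109 bp from the end of Peg10 and 7 bp from that of Sgce. Housekeeping genes had 1 of 29 (Hspa8, a heat shock chaperone, 1854 bp) and BTB zinc-finger genes 1 of 36 (Zbtb45, 1764 bp). The intervals of these 4 lists include the background of 2.26%. Olfactory receptors had 1 of 1099 (Olfr1358, 1590 bp), or 0.0910%, interval 0.00230 to 0.506. That lies below the background of 2.26%, but only 18 of the 1099 had a summit of any width (1.64%, against 40.3% of all genes), so few could have a wide one. No wide peak was found at an end of 349 vomeronasal receptor, 56 keratin-associated protein or 25 liver genes, of which 3, 1 and 5 had a summit of any width. The upper limits were 1.05%, 6.375% and 13.7%, and those of the keratin-associated protein and liver lists include the background.

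The autosomes differed in how many of their peaks were wide. The mean share was 5.13% ± 0.886 (SD, n = 19 autosomes). Autosome 15 had the highest share, 134 of 2106 peaks or 6.36% (interval 5.36 to 7.49), and autosome 16 the lowest, 47 of 1630 or 2.88% (2.13 to 3.82).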

How the data were processed

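CTCF ChIP-seq was deposited for 2 IP and 2 input samples of whole F1 testis as 1 peak list. The submitters' processing notes list BWA 0.7.12, MACS2 2.2.7 and mm10 without saying what each did. The names of the peaks read both bio2 and merged, and which IP samples entered was not settled. For each peak the authors deposited a fold (a ratio at the summit), a −log10 q and a score, and the first 2 were used within this list alone. The inputs were not analysed separately. Depth is unknown.

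Genes came from a RefSeq table of GRCm38.p6, which shares its chromosome coordinates with mm10. Genes starting below 3 Mb were left out, since such starts may be on unplaced scaffolds (328 autosomal genes). Strand and starts came from promoter windows, which matched 80.0% of 20560 protein-coding genes on 18 autosomes. Autosome 18 was not used there. Coordinates are 1-based, and place is the summit's position in percent of the width, each peak read left to right.

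Differences in share or mean per autosome (wide minus other) were tested by an exact two-sided sign-flip permutation with Benjamini-Hochberg adjustment over 5 tests, and checked on simulated labels. Shares have exact Clopper-Pearson 95% intervals and medians binomial ones, for counting error only. Fold, q and summit place share the contrast that gave the width and were not tested. The members and lists were chosen with earlier results of these data known. The histone list was rewritten in current symbols. Named items were the 10 widest peaks, the 10 of highest fold, 3 each just inside and outside the threshold, farthest off centre and of lowest fold, and up to 3 widest per list, of which 1 is not reported here. The promoters printed were the 4 widest and 2 of highest fold with the summit in the window. Python 3.11.15, pandas 2.3.3, NumPy 2.4.6, SciPy 1.17.1 and matplotlib 3.10.9 were used.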

Additional observations from a re-analysis of the deposited data

How the results depend on the processing

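The lower share inside genes kept its direction and side of the threshold under 7 alternatives (−8.45 to −5.27 points), and with each autosome left out it was −8.46 to −7.38. The gene-end difference of −0.84 points, which did not pass, was reversed with a window of 2.5 kb (0.71), fold at least 5 (0.68), −log10 q at least 5 (0.49) or at or above the median (1.67), all annotated genes (0.76), within quintiles of fold (0.29) and with any part of the peak in the window (3.94, where width itself adds reach). That last setting gave a higher share in wide peaks (exact permutation p = 8.774e-05). Its reach grows with the width that selected the peaks, so it cannot show where they lie relative to gene ends. The share passed as lower with a window of 500 bp (−2.36, exact permutation p = 0.00249) and with starts alone (−2.74). Without 1 autosome it was −1.38 (autosome 18) to −0.53 (autosome 16). The promoter GC call was lost with summits within 500 bp (1.12 points, exact permutation p = 0.0673) and a width of 1200 bp or more (0.871, exact permutation p = 0.0675). The CpG difference was reversed in both (−0.040 and −0.157). On unadjusted p, the core pattern passed with summits within 500 bp (5.09 points, exact permutation p = 0.0417). A width of 1200 bp or more (2.71, exact permutation p = 0.0133) and the shorter pattern (9.99, exact permutation p = 0.00114) passed likewise. In the main setting its unadjusted exact permutation p was 0.0771. The p-values of the other alternative settings are unadjusted too. The cause of these changes was not tested.

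The difference in median fold (0.097) was 0.52 at 1200 bp or more, and was reversed at 1600 bp or more (−0.036), at fold at least 5 (−0.63) and at −log10 q of the list median or higher (−2.35). Between medians of −log10 q the difference (30.2) was 33.7 and 28.5 at 1200 and 1600 bp, 19.6 and 5.89 in the 2 stricter sets and 29.6 without peaks within 1 kb of another. The difference in summit distance (3.99) was 2.24, 9.93 and 5.31 at 1200 bp, 1600 bp and fold at least 5. The stricter sets remove weak narrow peaks by construction. No paired analysis was possible because the list carries no value per sample, and for the same reason no replicate could be left out. The quintile and 700 bp settings and autosomes left out for the share inside genes, and the shorter pattern, were chosen after seeing the data. With the depth unknown, how far width reflects read number cannot be stated.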

Other observations

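Peaks of 1400 bp or more on the sex chromosomes fell outside the selection. The X chromosome held 8 among 1363 peaks (0.587%, exact 95% interval 0.254 to 1.15) and the Y chromosome 4 among 241 (1.66%, interval 0.454 to 4.20), against 2.88% to 6.36% on the autosomes. These shares were not tested, and the read depth there is not known.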
